A study of Mus musculus with 11 samples.

Results

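The genes described here are 9 genes of iron storage and transport, chosen by symbol: the ferritin chains Fth1 and Ftl1, transferrin (Trf) and its receptor (Tfrc), the iron transporters Slc11a2, Slc11a1 and Slc40a1, and the iron sensors Aco1 and Ireb2. A probe was counted to a gene when the accession given for it in the array files maps to that symbol, which gave 14 probes for the 9 genes. All 14 passed the filter on dim probes, so all 9 genes are among the 25997 features tested. Total RNA of right-hemisphere cortex from 22 mice was hybridised to 11 Agilent 2-colour arrays, with the RNA of 1 mouse in the Cy5 channel of an array and of another in its Cy3 channel. All mice are on the C57/Bl6J background and 5 to 7 months old. Intact wild-type mice form the group WT (n = 6) and intact transgenic mice the group T (n = 5). Wild-type mice with a cryolesion are called WTC (n = 5) and transgenic mice with a cryolesion TC (n = 6). The transgenics carry GFA2-tTa and TetO-VP16-CREB: a promoter derived from the astrocyte gene Gfap drives a tetracycline-controlled activator, which in turn switches on VP16-CREB, a version of the transcription factor CREB that is always active. The cryolesion is a cold injury: a dry ice pellet was applied for 30 s, and the mice were killed 3 days afterwards. The tissue was a piece of cortex with all its cells, so fewer cells of a type and less RNA per cell cannot be told apart in any value below.

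Cells take up iron mainly as transferrin-bound iron through the transferrin receptor, move it out of endosomes through divalent metal transporters, store it in the hollow ferritin shell and release the surplus through ferroportin. When iron is scarce, the iron regulatory proteins encoded by Aco1 and Ireb2 bind hairpins called iron-responsive elements in messenger RNA, blocking the translation of ferritin and stabilising the transferrin receptor message. In brain, oligodendrocytes make most of the transferrin, and after a haemorrhage or a necrotic injury phagocytes take up dying cells and haem and so handle much of the released iron.

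Each comparison was made in 2 ways. The log ratio fit, the main one, uses the Cy5 over Cy3 ratio within each array (limma, 7 residual degrees of freedom). Each ratio compares mice that shared an array, and the fit also links groups through chains of arrays. WTC minus WT thus draws on arrays A and B, which pair these groups, and on arrays that pair each of them with TC. The separate-channel fit treats both channels as 2 measurements tied by their spot (limma, 17 residual degrees of freedom), and so also compares mice across arrays. All WT mice were on slide 1, while 3 of the 5 WTC mice were on slide 2. All TC mice but that of array C were on slide 2, while the T mice of arrays D, E and F were on slide 1. The separate-channel fits of WTC minus WT and of TC minus T thus also compare mice across slides. Adjusted p-values are Benjamini-Hochberg values over all 25997 features, with a threshold of 0.05, and errors of log2 ratios are standard errors (SE). Levels per mouse are log2 intensities after normalization, comparable between mice for a gene but not between genes. Gfap, the astrocyte filament gene that rises after brain injury, was 3.47 ± 0.46 higher in WTC than in WT on the log2 scale (adjusted p = 0.056, log ratio fit), and 3.30 ± 0.33 higher in the separate-channel fit (adjusted p = 1.6e-05). The mean log2 level over 7 measured neuron markers lay between 12.74 and 13.84 in all mice, which does not show that the tissue was cortex alone. The mean level of 8 striatum markers varied widely between mice, from 9.06 to 12.93, and the median log2 ratio of these markers was -0.77 in WTC minus WT, -1.38 in TC minus T, -1.24 in T minus WT and -1.83 in TC minus WTC. Their part in the results was not tested. The TC mouse of array I stands apart: its levels lie among those of intact mice for several genes below. The channel labels of arrays I, J and K contradict the sample titles used here, and results that turn on this are given with the other reading. Monocyte and macrophage markers went with the titles on J and K but with the channel label on I, with values given under the processing.

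After the lesion, wild-type cortex had more RNA of Ftl1, Trf, Slc11a1 and Slc40a1 and less of Tfrc in the separate-channel fit, in which 5 of the 9 genes passed the threshold against 26.4% of all features. In the log ratio fit 0 of the 9 passed, against 0.0231% of all features, and 7 of the 9 had an unadjusted p under 0.05, against 19.5% of all features. Calls of the log ratio fit changed with single arrays: without array K it called Fth1, Ftl1, Trf and Slc11a1, against 5.99% of all features, and without array I Slc40a1 and Slc11a1, against 5.51%. The median log2 ratio of the 9 genes in WTC minus WT was 0.50 in the log ratio fit, and 0.0031 over all features. In transgenic mice (TC minus T) the separate-channel fit called 3 of the 9, against 7.4% of all features, and the log ratio fit 0 of the 9, against 0% of all features. There 2 of the 9 had an unadjusted p under 0.05, against 11.9% of all features, and the median log2 ratio was 0.31 against 0.0048. For 4 of the 9 genes no WTC mouse overlapped the WT range, against 16.3% of all features. For 1 of the 9 no TC mouse overlapped the T range, against 4.92% of all features.

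**Figure D1:**
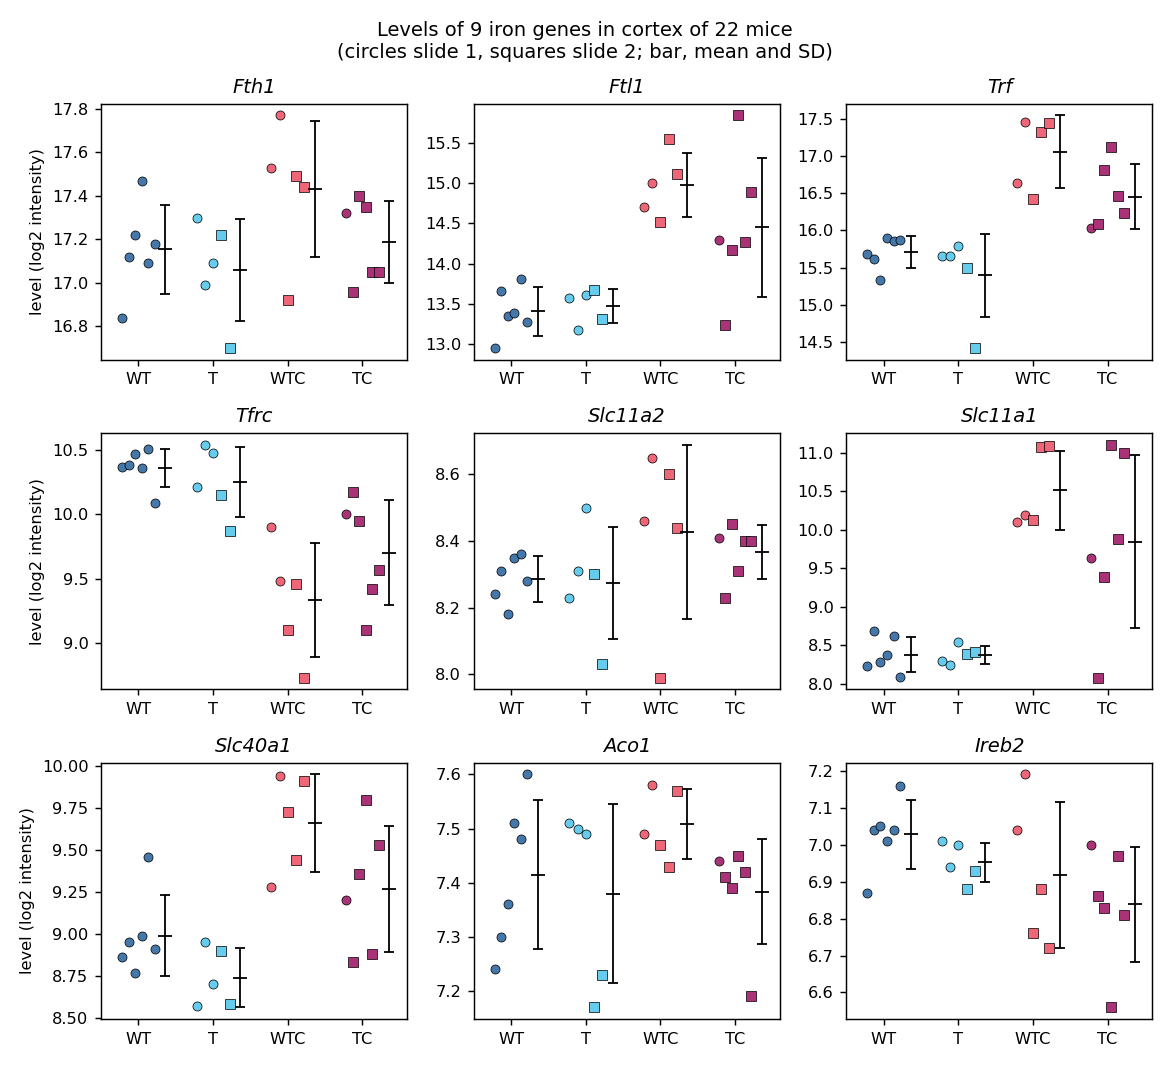
Levels of the 9 iron genes (log2 intensity, vertical axes) in each of 22 mice by group (horizontal axes), with circles for slide 1, squares for slide 2 and a black bar for the mean and SD. Slc11a1 lies between 8.09 and 8.68 in WT and between 10.10 and 11.08 in WTC, while Tfrc lies between 10.09 and 10.51 in WT and between 8.73 and 9.90 in WTC.

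Ferritin stores iron as a mineral inside a shell of heavy chains, which oxidise it, and light chains, which help it to nucleate. Fth1 encodes the heavy chain. Its level in WT ran from 16.84 over a median of 17.15 to 17.47. The WTC mice had 17.53, 17.77, 16.92, 17.49 and 17.44, the T mice 17.30, 16.99, 17.09, 17.22 and 16.70, and the TC mice ran from 16.96 over a median of 17.19 to 17.40. All 4 groups overlapped, with 3 of the 5 WTC mice above every WT mouse and the WTC mouse of array K inside the WT range. WTC minus WT was 0.50 ± 0.20 on the log2 scale in the log ratio fit (1.41-fold, 95% interval 0.044 to 0.95, adjusted p = 0.22). It was 0.34 ± 0.14 in the separate-channel fit (adjusted p = 0.082). TC minus T was 0.31 ± 0.20 (adjusted p = 0.56), and -0.11 ± 0.33 with the channel labels in place of the titles. The median signal of the probe was 3140 times background.

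Ftl1 encodes the ferritin light chain. In WT its level ran from 12.95 over a median of 13.37 to 13.81, and the WTC mice had 14.70, 15.00, 14.51, 15.54 and 15.11. No WTC mouse overlapped the WT range. In T the levels were 13.57, 13.18, 13.61, 13.67 and 13.31, and the TC mice ran from 13.24 over a median of 14.28 to 15.84. The lowest TC value, 13.24, was that of the TC mouse of array I and lay within the T range, and the other 5 TC mice lay above every T mouse. Ftl1 rose in WTC against WT in the separate-channel fit, by 1.45 ± 0.32 (2.73-fold, adjusted p = 0.0034). By log ratios it was 1.17 ± 0.45 (2.24-fold, adjusted p = 0.21). In TC minus T the values were 0.88 ± 0.31 (adjusted p = 0.085) by channels and 0.63 ± 0.44 (adjusted p = 0.61) by log ratios. The channel labels turned the latter to -0.099 ± 0.73. A further Ftl1 probe, brighter but without a value on array M, gave a WTC minus WT log2 ratio of 1.24 ± 0.38 in the log ratio fit.

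Within slide 1, where 2 arrays paired a WTC with a WT mouse, the log2 ratio of Fth1 was 0.67 ± 0.10 (adjusted p = 0.029) and that of Ftl1 1.55 ± 0.13 (adjusted p = 0.013). In that fit of 6 arrays 4 of the 9 genes passed, Fth1, Ftl1, Trf and Slc11a1, against 8.19% of all features. Without arrays I, J and K, 5 of the 9 passed in WTC minus WT, these 4 and Slc40a1, against 6.7% of all features.

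The promoters of Ftl1 and Slc11a1 are shown because the 2 genes moved together more closely than any other pair of the 9, with Pearson's r of 0.97 over 22 mice, which share arrays and the lesion. Each line gives the 250 bases before the transcription start from RefSeq's table for GRCm38.p6, on the gene's strand. Ftl1 is read from chr7:45459887-45460136 (minus strand), with the GC box (GGGCGG, here on the opposite strand) in capitals. Slc11a1 is read from chr1:74374953-74375202 (plus strand), with the core letters GAGGAA, bound by the myeloid factor PU.1, in capitals.
Ftl1: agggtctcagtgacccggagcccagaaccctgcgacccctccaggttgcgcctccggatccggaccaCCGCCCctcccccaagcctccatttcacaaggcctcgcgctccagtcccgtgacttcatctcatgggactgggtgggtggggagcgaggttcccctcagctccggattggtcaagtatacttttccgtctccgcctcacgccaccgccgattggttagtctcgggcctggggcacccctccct
Slc11a1: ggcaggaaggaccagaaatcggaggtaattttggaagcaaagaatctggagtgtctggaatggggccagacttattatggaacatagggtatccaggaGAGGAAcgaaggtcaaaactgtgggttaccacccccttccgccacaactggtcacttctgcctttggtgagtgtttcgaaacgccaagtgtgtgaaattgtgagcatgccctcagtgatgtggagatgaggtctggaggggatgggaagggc
Promoters of 250 bases before to 50 after a start were found in that table for 6 of the 9 genes, 8 promoters in all. In all 6 short motifs were searched on both strands. GAGGAA was found in promoters of Slc11a1 and Ireb2 and in 28.3% of all 32851 promoters, and GGGCGG in those of Aco1, Fth1, Ftl1, Ireb2 and Tfrc and in 35.7% of all. The antioxidant response element TGACNNNGC, held by 12.4% of all promoters, and the full CREB site TGACGTCA, held by 1.79%, were not among the letters of any of the 8.

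Trf encodes transferrin, the iron carrier of plasma and of the fluid around brain cells. Its level in WT ran from 15.34 over a median of 15.77 to 15.90, and the WTC mice had 16.64, 17.46, 16.42, 17.32 and 17.44. The T mice had 15.65, 15.65, 15.79, 15.49 and 14.42, with the mouse of array J lowest. The TC mice ran from 16.03 over a median of 16.35 to 17.12. Neither lesioned group overlapped its intact group, and the TC mouse of array I, at 16.08, was also above every T mouse. Trf rose in both genotypes in the separate-channel fit, by 1.36 ± 0.26 in WTC minus WT (2.56-fold, adjusted p = 0.0015) and by 1.14 ± 0.26 in TC minus T (2.21-fold, adjusted p = 0.015). By log ratios the values were 1.43 ± 0.39 (adjusted p = 0.12) and 1.30 ± 0.38 (adjusted p = 0.30). On the single arrays the log2 ratio of WTC over WT was 0.96 (A) and 1.84 (B), and that of TC over T 0.59 (I) and 2.38 (J). Without array J, which holds the low T mouse, TC minus T was 0.74 in the log ratio fit. The other Trf probe, without a value on array K, gave 1.66 ± 0.31 for WTC minus WT and 1.23 ± 0.30 for TC minus T. With the channel labels in place of the titles TC minus T of Trf was -0.10 ± 0.85.

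Tfrc encodes the transferrin receptor, the main entry for transferrin-bound iron. The WT mice ran from 10.09 over a median of 10.38 to 10.51, and the WTC mice had 9.90, 9.48, 9.10, 9.46 and 8.73. Every WTC mouse was below every WT mouse. In T they were 10.21, 10.54, 10.48, 10.15 and 9.87, and the TC mice ran from 9.10 over a median of 9.76 to 10.17. Of the TC mice 3 lay below every T mouse, and those of arrays C, I and J lay within the T range. Tfrc fell in WTC against WT in the separate-channel fit, with a log2 ratio of -0.90 ± 0.19 (0.537-fold, adjusted p = 0.0026). By log ratios it was -0.58 ± 0.20 (adjusted p = 0.16), and within slide 1 the log2 ratio was -0.69 ± 0.16 (adjusted p = 0.067). TC minus T was -0.44 ± 0.18 (adjusted p = 0.14) by channels and -0.17 ± 0.19 (adjusted p = 0.77) by log ratios. Within slide 2 it was 0.06 ± 0.26, with the opposite sign.

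The 3 probes of Tfrc gave different sizes. The probe used, A_52_P228236, is printed as 10 spots per array and was the brightest, with a median signal 25.1 times background. The probe A_51_P167876, at 1.8 times background, had WTC levels from 6.31 to 6.57 and WT levels from 6.66 to 6.93. Its WTC minus WT log2 ratio was -0.25 ± 0.07 in the separate-channel fit over probes (adjusted p = 0.022), so it fell as well. The probe A_65_P06446, at 13.4 times background, had WTC levels from 8.95 to 9.55 and WT levels from 9.12 to 9.61, which overlapped. Its log2 ratio was -0.18 ± 0.13 (adjusted p = 0.32). In TC minus WTC the 3 probes had log2 ratios of 0.34 ± 0.17, 0.04 ± 0.08 and -0.20 ± 0.12 in the log ratio fit, in the order named.

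**Figure D2:**
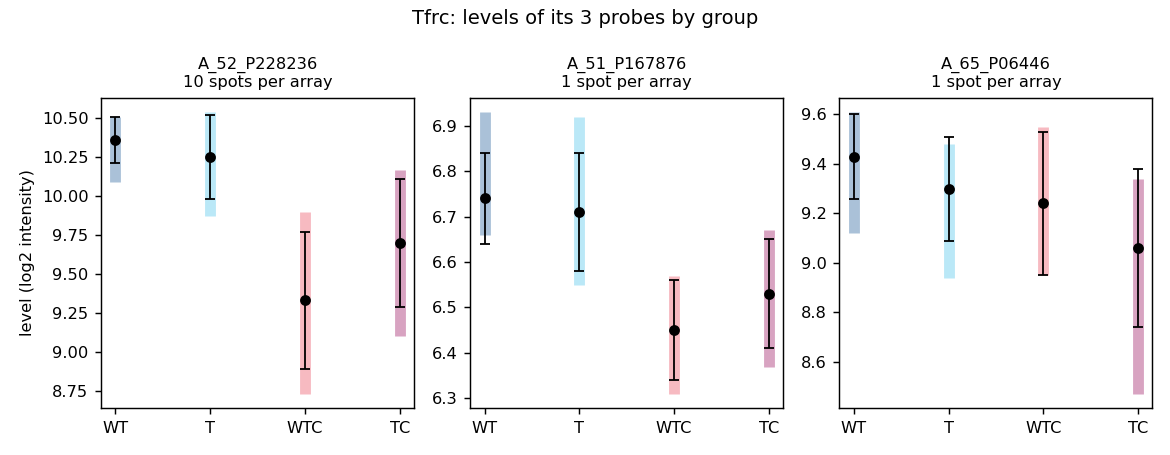
Levels of the 3 Tfrc probes (log2 intensity, vertical axes) by group, with a coloured bar from the lowest to the highest mouse and a black point and bar for the mean and SD. The probe with 10 spots falls from a mean of 10.36 in WT to 9.33 in WTC, the dim probe from 6.74 to 6.45, and the third from 9.43 to 9.24 with overlapping ranges.

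Tfrc and Fth1 are the members whose RefSeq promoters hold the letters TGACG, the short form of the site that CREB binds and so the one that bears on a CREB transgene. Each line shows 30 bases around it in GRCm38.p6, with TGACG in capitals. For Tfrc they lie at chr16:32608897-32608926 (plus strand), the motif starting 13 bases after one listed start and 213 bases before the other. For Fth1 they lie at chr19:9982644-9982673 (plus strand), the motif starting 10 bases after the start.
Tfrc: tgcggaaggaagTGACGtagatccagaggg
Fth1: ccagcgctcgccTGACGcaggatcccgcta
TGACG is found in 20.8% of all promoters. The hypoxia response core ACGTG, held by 19.6% of all, was found in both overlapping Tfrc promoters and in no other of the 8. A match is only a description of letters in the window.

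Slc11a2 encodes DMT1, the divalent metal transporter that moves iron out of endosomes in most cells. Its WT levels ran from 8.18 over a median of 8.29 to 8.36, and the WTC mice had 8.46, 8.65, 7.99, 8.60 and 8.44. Of the WTC mice 4 were above every WT mouse and that of array K was below every WT mouse, so the groups overlapped. The T mice had 8.23, 8.31, 8.50, 8.30 and 8.03, and the TC mice ran from 8.23 over a median of 8.40 to 8.45, inside the T range. WTC minus WT was 0.24 ± 0.12 (95% interval -0.036 to 0.52, adjusted p = 0.32) and TC minus T 0.20 ± 0.12 (adjusted p = 0.53) in the log ratio fit, the latter being -0.026 ± 0.21 under the channel labels. The dimmer of its 2 probes gave 0.05 ± 0.08 and 0.01 ± 0.07.

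Slc11a1 encodes NRAMP1, the related transporter of phagosomes, found mainly in macrophages, neutrophils and other phagocytes. The WT levels ran from 8.09 over a median of 8.33 to 8.68, and the WTC mice had 10.10, 10.19, 10.12, 11.07 and 11.08. The gap between the highest WT and the lowest WTC mouse was wider than either group's own range. The levels in T were 8.30, 8.24, 8.54, 8.39 and 8.41, and the TC mice ran from 8.08 over a median of 9.76 to 11.10. That lowest TC value was the mouse of array I, below every T mouse, and the other 5 were above every T mouse. Slc11a1 rose in the separate-channel fit by 1.92 ± 0.36 in WTC minus WT (3.78-fold, adjusted p = 0.0013) and by 1.27 ± 0.36 in TC minus T (2.41-fold, adjusted p = 0.036). In the log ratio fit the values were 1.38 ± 0.40 (adjusted p = 0.13) and 0.78 ± 0.39 (adjusted p = 0.47). Within slide 1 WTC minus WT was 1.69 ± 0.15 (adjusted p = 0.013). Within slide 2 TC minus T was 0.34 ± 0.60 (adjusted p = 0.99), where the arrays gave -0.30 (I) and 0.98 (J).

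Slc40a1 encodes ferroportin, the exporter of iron from cells. In WT the levels ran from 8.77 over a median of 8.93 to 9.46, the highest being the mouse of array E. The WTC mice had 9.28, 9.94, 9.73, 9.44 and 9.91, of which 3 were above every WT mouse. Those of T were 8.57, 8.95, 8.70, 8.90 and 8.58, and the TC mice ran from 8.83 over a median of 9.28 to 9.80, with 4 of 6 above every T mouse. Slc40a1 rose in the separate-channel fit by 0.65 ± 0.16 in WTC minus WT (1.57-fold, adjusted p = 0.0064) and by 0.53 ± 0.15 in TC minus T (1.44-fold, adjusted p = 0.042). The values by log ratios were 0.62 ± 0.19 (adjusted p = 0.14) and 0.53 ± 0.18 (adjusted p = 0.34).

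Neither sensor passed in any comparison. Aco1 encodes IRP1, which is a cytosolic aconitase when iron is plentiful and an RNA-binding protein when it is not. Its WT levels ran from 7.24 over a median of 7.42 to 7.60, and the WTC mice, at 7.49, 7.58, 7.47, 7.43 and 7.57, all lay within that range. The T mice had 7.51, 7.50, 7.49, 7.17 and 7.23, with both slide 2 mice lowest. The TC mice ran from 7.19 over a median of 7.42 to 7.45. WTC minus WT was 0.27 ± 0.09 (95% interval 0.075 to 0.46, adjusted p = 0.15) in the log ratio fit and 0.14 ± 0.08 (adjusted p = 0.16) by channels. Ireb2 encodes IRP2, the sensor that is degraded when iron is plentiful. Its WT levels ran from 6.87 over a median of 7.04 to 7.16, the WTC mice had 7.04, 7.19, 6.76, 6.88 and 6.72, and the T mice 7.01, 6.94, 7.00, 6.88 and 6.93. The TC mice ran from 6.56 over a median of 6.85 to 7.00. All 4 groups overlapped, and WTC minus WT was 0.06 ± 0.09 (95% interval -0.14 to 0.26, adjusted p = 0.75) in the log ratio fit and -0.06 ± 0.08 (adjusted p = 0.60) by channels. Both probes were dim, with median signals 3.54 and 2.34 times background, a range in which measured ratios are compressed.

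**Figure D3:**
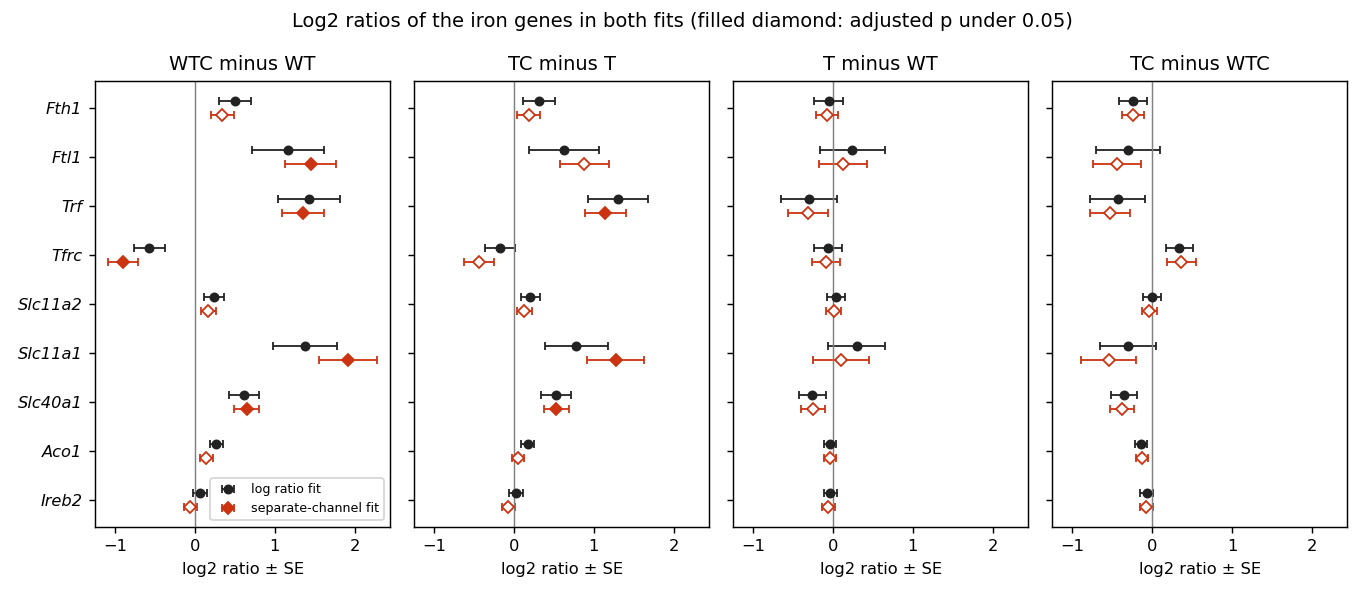
Log2 ratios of the 9 iron genes (horizontal axes, bars ± SE) in 4 comparisons, with black circles for the log ratio fit and red diamonds for the separate-channel fit, filled where the adjusted p is under 0.05. Filled diamonds are found for 5 genes in WTC minus WT and 3 in TC minus T and for none in T minus WT and TC minus WTC.

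The Ftl1, Slc40a1 and Tfrc levels of the TC mouse of array I lay within the T range and its Slc11a1 level below it. With this mouse left out of a separate-channel fit with the array as a random block, an alternative chosen after seeing the data, 4 of the 9 genes passed in TC minus T against 12.5% of all features. Ftl1 was then at 1.21 ± 0.27, Slc11a1 at 1.72 ± 0.27, Trf at 1.27 ± 0.27 and Slc40a1 at 0.66 ± 0.15. The mouse was picked by its low Ftl1, Slc11a1 and Slc40a1 levels, so leaving it out raises those ratios by construction. The count and the ratios of this fit are thus no support for a rise. The mouse's Trf level of 16.08 and mean astrocyte marker level of 13.02 lay above every T mouse.

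Markers of several other cell types moved with these genes, and the part of cell types in the results was not tested. All 7 measured of 8 monocyte and macrophage markers had positive WTC minus WT ratios (median 1.88, log ratio fit), and their mean log2 level ran from 7.28 to 7.82 in WT, 7.43 to 8.02 in T, 9.58 to 10.85 in WTC and 7.87 to 10.92 in TC. In the WTC and WT mice it thus had no overlap, like Ftl1 and Slc11a1, and its lowest TC value was again the mouse of array I. The 8 astrocyte markers, 7 of them with positive ratios, had mean levels from 12.27 to 12.53 in WT, 12.34 to 12.55 in T, 13.15 to 13.38 in WTC and 12.92 to 13.47 in TC, so neither lesioned group overlapped its intact group. All 9 microglia markers had positive ratios too (median 1.29). Their mean levels ran from 11.58 to 12.19 in WT, 11.84 to 12.04 in T, 12.93 to 13.80 in WTC and 11.65 to 13.74 in TC. The microglia list thus shared the lack of overlap between WTC and WT, and its lowest TC value was also the mouse of array I. Of 8 neutrophil markers 4 were measured, with mean levels from 6.84 to 7.16 in WT, 7.09 to 8.66 in T, 8.08 to 8.80 in WTC and 7.02 to 8.89 in TC. Here too WTC and WT did not overlap, and the mouse of array I had the lowest TC value. S100a8 and S100a9 had WTC minus WT log2 ratios of 1.935 and 2.565 in the log ratio fit, but Mpo and Camp only 0.04 and 0.07. Beside Trf stand the 8 oligodendrocyte markers, with mean levels from 13.66 to 13.97 in WT, 13.17 to 13.70 in T, 13.86 to 14.64 in WTC and 13.09 to 14.44 in TC. In the log ratio fit their WTC minus WT median was 0.25, with 8 of 8 positive, and their T minus WT median -0.42, with 0 of 8 positive. By channels the WTC minus WT median was 0.175, with 5 of 8 positive. In TC minus WTC, where Trf was at -0.43, the median was -0.41 for oligodendrocyte and -2.45 for choroid plexus markers, with 0 of 8 positive in each list. Choroid plexus, another maker of transferrin, had mean marker levels from 8.39 to 12.62 in WT, 8.92 to 10.27 in T, 9.69 to 12.67 in WTC and 7.75 to 12.62 in TC. The WTC minus WT median of this list, which includes ependyma markers, was 1.82 in the log ratio fit, with 8 of 8 positive. Beside Tfrc stand the erythroid markers, since young red cells carry much transferrin receptor: 7 of 9 were measured, 0 of 7 had a positive WTC minus WT ratio, and the mean level ran from 11.47 to 12.07 in WT and 10.36 to 11.31 in WTC. Alas2, the erythroid enzyme of haem synthesis, was among the measured. Endothelium and neuron markers were set beside Tfrc as well. Of 8 endothelium markers 4 had positive WTC minus WT ratios (median 0.078, log ratio fit). Their mean levels ran from 10.67 to 11.14 in WT and 10.65 to 11.75 in WTC. Of 7 measured neuron markers 2 had positive ratios (median -0.16), with mean levels from 13.41 to 13.74 in WT and 12.82 to 13.56 in WTC.

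The next question was whether CREB activation changed these genes in intact cortex (T minus WT). None of the 9 passed in the log ratio fit, against 0% of all features, 0 of 9 had an unadjusted p under 0.05, against 2.93% of all features, and none passed in the separate-channel fit, against 0%. The levels overlapped for all 9, where 0.592% of all features did not. The log2 ratios ran from -0.30 ± 0.35 for Trf to 0.29 ± 0.36 for Slc11a1. For Slc40a1, where 3 of 5 T mice lay below every WT mouse, the ratio was -0.26 ± 0.17 (95% interval -0.64 to 0.12, adjusted p = 0.98). The intervals leave room for changes of some size: that of Ftl1 runs from -0.68 to 1.15 and that of Tfrc from -0.46 to 0.33.

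After the lesion, transgenic minus wild type (TC minus WTC) had negative log2 ratios for 8 of the 9 genes and a positive one for Tfrc. This comparison shares its WTC mice with the lesion comparison above, so the values of the pair are not independent. None passed in the log ratio fit, against 0% of all features, with 0 of 9 at an unadjusted p under 0.05, against 14.8% of all features. None of the 9 passed in the separate-channel fit either, against 0.138% of all features. No gene separated the groups, where 0.435% of all features did. In the log ratio fit Tfrc was at 0.34 ± 0.17 (95% interval -0.047 to 0.73, adjusted p = 0.40) and Slc40a1 at -0.35 ± 0.17 (95% interval -0.72 to 0.022, adjusted p = 0.37). Trf was at -0.43 ± 0.34, Slc11a1 at -0.31 ± 0.35, Ftl1 at -0.30 ± 0.40 and Fth1 at -0.24 ± 0.18. The 3 arrays that paired TC with WTC mice did not share a direction: for Ftl1 they gave 1.33 (K), -1.26 (L) and -0.21 (M), and for Slc11a1 0.98, -1.18 and -0.10. Tfrc gave 0.00, -0.04 and 0.84 on the same arrays, and without array M its TC minus WTC log2 ratio was 0.16 ± 0.17.

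**Figure D4:**
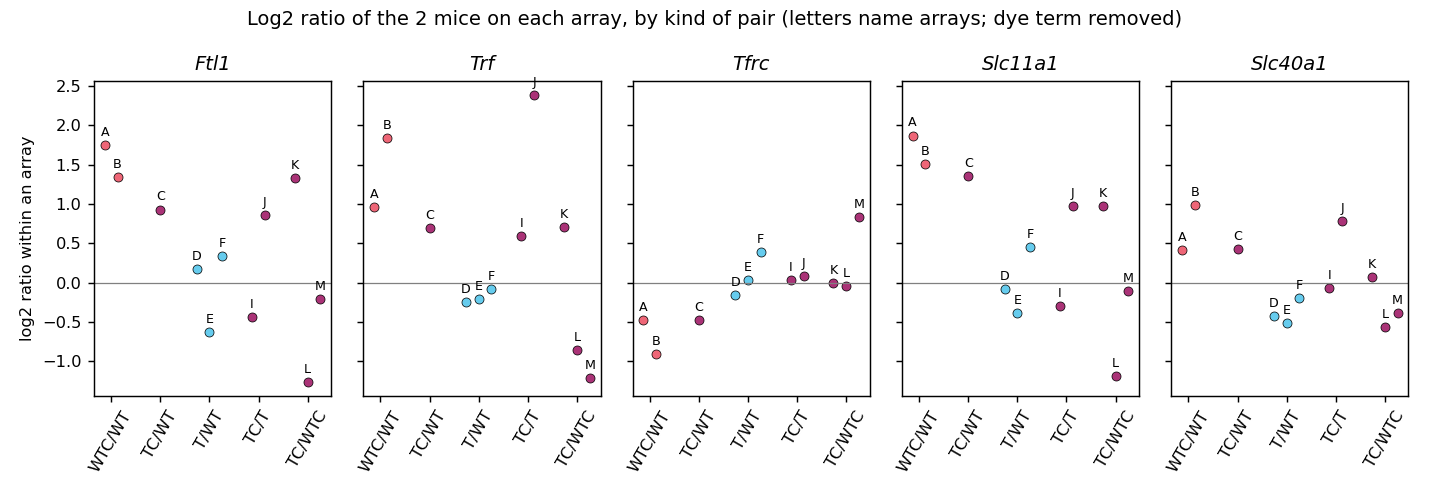
Log2 ratio between the 2 mice of each array (vertical axis) for 5 iron genes, by kind of pair on the horizontal axes, with letters for arrays and the dye term removed. Both WTC/WT arrays are positive for Ftl1, Trf, Slc11a1 and Slc40a1 and negative for Tfrc, while the 3 TC/WTC arrays K, L and M differ in sign for Ftl1, Trf and Slc40a1.

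The difference of both lesion effects (TC minus T less WTC minus WT) was tested directly. None of the 9 passed in the log ratio fit, against 0% of all features, 0 of 9 had an unadjusted p under 0.05, against 5.33% of all features, and none passed in the separate-channel fit, against 0% of all features. The log2 differences ran from -0.60 ± 0.46 for Slc11a1 (95% interval -1.63 to 0.43) to 0.40 ± 0.22 for Tfrc (95% interval -0.10 to 0.90, adjusted p = 0.81). That 5 genes passed in wild type and 3 in transgenic mice is therefore not shown to be a difference between the genotypes.

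The authors' deposited table gives log ratios, on a log base it does not state, and adjusted p-values for TC minus T and TC minus WTC. In the authors' deposited table Trf had 1.07 in TC minus T (adjusted p = 0.035), the one member with an adjusted p under 0.05 there, against 1.73% of all probes. For TC minus WTC the authors' deposited table gave Tfrc 0.74 (adjusted p = 0.013) and Ftl1 -0.93 (adjusted p = 0.025), with adjusted p under 0.05 for 10.7% of all probes. Both Tfrc values are medians over the 10 spots of its probe, which the authors' deposited table lists one by one. The further Ftl1 probe had -0.71 in the authors' deposited table for this comparison (adjusted p = 0.046). Slc40a1 at -0.58 (adjusted p = 0.050) and Slc11a1 at -1.03 (adjusted p = 0.071) did not pass in the authors' deposited table. The other Tfrc probes did not pass in the authors' deposited table for TC minus WTC, with 0.25 for A_51_P167876 (adjusted p = 0.23) and -0.25 for A_65_P06446 (adjusted p = 0.46).

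Other genes of iron handling were taken from a list of 50, of which 44 passed the filter. Hamp, which encodes hepcidin, the hormone that removes ferroportin, was not among them, nor were Hamp2, Hephl1, Ftmt, Ltf and Cd163. The log ratio fit called 0 of the 44 in each comparison, with an unadjusted p under 0.05 for 12 in WTC minus WT, against 19.5% of all features, and for 9 in TC minus T, against 11.9%. In the separate-channel fit of WTC minus WT 11 of the 44 rose and 3 fell, where 26.4% of all features were called. The median log2 ratio over the 44 in the log ratio fit was 0.16 in WTC minus WT and 0.17 in TC minus T.

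The largest rises in WTC minus WT in the separate-channel fit were those of Lcn2, Hmox1, Tspo, Cp, Cybrd1 and Hp. Lcn2, a carrier of iron-binding siderophores and an acute-phase protein, rose by 4.19 ± 0.83 (adjusted p = 0.0017). Hmox1, which frees iron from haem, rose 15.9-fold (log2 SE 0.63, adjusted p = 0.00041), with levels from 8.70 to 10.14 in WT and 12.48 to 14.51 in WTC. The log ratio fit, in which neither passed, gave smaller values of 2.97 ± 0.53 for Lcn2 (7.85-fold, adjusted p = 0.080) and 8.01-fold for Hmox1 (log2 SE 0.72, adjusted p = 0.10). Tspo, a mitochondrial outer membrane protein raised in reactive glia, rose by 2.20 ± 0.35. Cp, the ferroxidase ceruloplasmin, rose by 1.80 ± 0.32, Cybrd1, a ferric reductase, by 1.65 ± 0.21, and Hp, which binds free haemoglobin, by 1.53 ± 0.40. Among those that fell were Slc25a37, the mitochondrial iron importer mitoferrin 1 (-0.73 ± 0.20, adjusted p = 0.013), and Fbxl5, which marks IRP2 for degradation (-0.44 ± 0.13, adjusted p = 0.018). In TC minus T 6 of the 44 rose and 0 fell in the separate-channel fit, where 7.4% of all features were called: Hmox1 by 2.51 ± 0.62 (adjusted p = 0.022), Tspo by 1.71 ± 0.35, Hpx, the haem carrier hemopexin, by 1.45 ± 0.39, Hfe, a partner of the transferrin receptor, by 1.15 ± 0.21, Cybrd1 by 0.97 ± 0.21 and Slc39a8, a metal importer, by 0.59 ± 0.15.

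**Figure D5:**
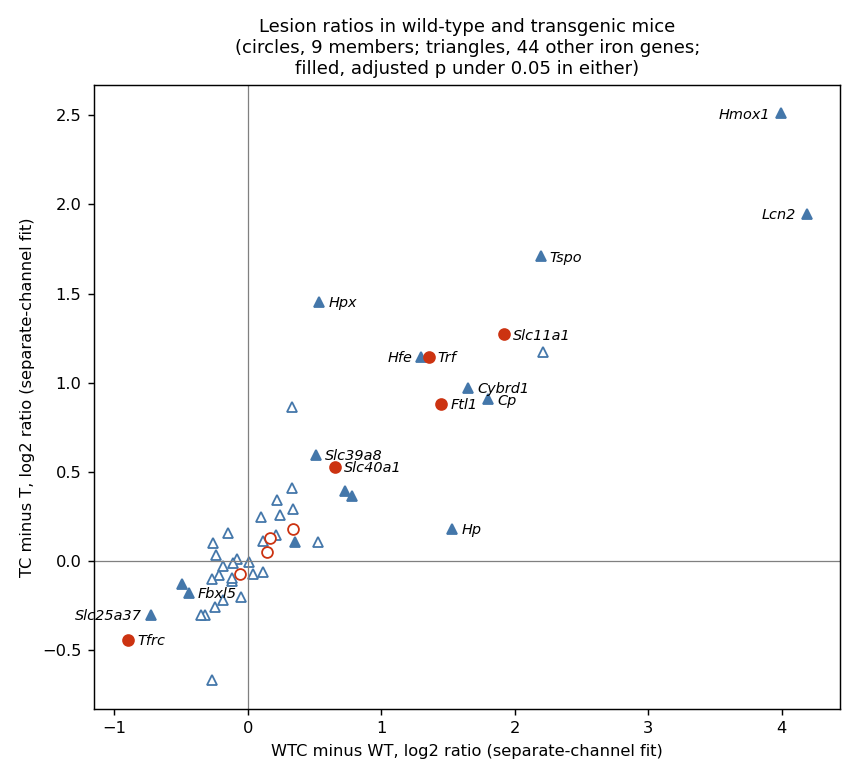
Log2 ratios of the separate-channel fit in WTC minus WT (horizontal axis) and TC minus T (vertical axis), with red circles for the 9 members, blue triangles for 44 other iron genes and filled symbols where the adjusted p is under 0.05 in either comparison. Tspo lies at 2.20 and 1.71, Slc11a1 at 1.92 and 1.27 and Tfrc at -0.90 and -0.44.

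None of the 44 passed in either fit in T minus WT, TC minus WTC or the difference of lesion effects. The smallest p-values of the log ratio fit in T minus WT, which did not pass, were those of Lcn2 (1.66 ± 0.48, adjusted p = 0.98), Lrp1 (-0.28 ± 0.14) and Epas1 (-0.32 ± 0.15). In TC minus WTC Blvra, the biliverdin reductase that acts after haem breakdown, was among them (0.39 ± 0.14, adjusted p = 0.26). For the difference of lesion effects Lcn2 was among them (-2.04 ± 0.61, adjusted p = 0.81).

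For each member the features most like it were named by Pearson's r of log2 levels over the 22 mice, among 16032 features with a symbol, as a description that mostly reflects intact against lesioned mice. Slc11a1 was nearest to Slc15a3 (r = 0.99), Lilrb4a (r = 0.99) and Csf2rb2 (r = 0.99), and Ftl1 to Cd14 (r = 0.99), Msr1 (r = 0.99) and Lilr4b (r = 0.98). Slc40a1 was nearest to Nfatc1 (r = 0.95), Selplg and Erbb2, Trf to Apod (r = 0.97), Crtap and Sdc4, and Tfrc to Adck1 (r = 0.95), Zdhhc17 and Zswim1. The remaining members had lower values: Fth1 was nearest to Taldo1 (r = 0.86), Slc11a2 to Rpl23 (r = 0.89), Ireb2 to Sdhaf4 (r = 0.90) and Aco1 to Rpn1 (r = 0.75). Between members, Tfrc ran opposite to Slc11a1 (r = -0.86) and Ftl1 (r = -0.82), while Fth1 and Ftl1, the 2 chains of one shell, had r = 0.56.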

How the data were processed

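Array images were read with Agilent Feature Extraction (version 10.7.3.1 per the file headers), and the deposited medians of each spot and of its surround are intensity on a linear scale, with no background subtracted and no normalization. The deposited LogRatio, per the file headers log10 of the processed Cy5 over Cy3 signal ratio, served only as an alternative. A further table by the authors holds fold changes and adjusted p-values for WTC minus WT, TC minus T and TC minus WTC, and the submitters' processing notes name limma. The authors' deposited fold changes were read as log2 values, although no header gives the base. Its p-value column for WTC minus WT holds numbers above 1 and was not used.

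In limma 3.58.1 (R 4.3.3) the median signals were corrected with normexp (offset 50) and normalized by loess within each array, with weight 0 for controls and outliers. Outlier spots were then dropped and the spots of a probe averaged. Probes were kept if at least 5 of the 22 channels were well above background and every array had a value, and the brightest per gene was used. The log ratio fit (lmFit, eBayes, two-sided) models each group's difference from WT plus a dye effect. The separate-channel fit (lmscFit, intraspot correlation 0.321) follows Aquantile normalization, as do the levels per mouse, from which each probe's dye effect was removed. Per channel, 56.6% to 65.3% of spots were well above background. Precision is limited by having 11 arrays.

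Groups come from the sample titles. The channel 2 labels give T for the Cy3 mouse on I and on K (titles: TC), and TC for the one on J (title: T). The mean monocyte and macrophage marker levels of these mice were 7.87 (I), 7.43 (J) and 10.92 (K). WT mice ran from 7.28 to 7.82 and WTC mice from 9.58 to 10.85, so J and K went with the titles. The value on I lay within the T range of 7.43 to 8.02, on the side of the channel label. The mean astrocyte marker levels of the same mice were 13.02 (I), 12.51 (J) and 12.92 (K), against 12.27 to 12.53 in WT and 13.15 to 13.38 in WTC. On I this level lay above the T range of 12.34 to 12.55, on the side of the title. These markers thus do not settle the label of array I. Every channel is labelled as its own mouse and each mouse is on 1 array here, although the design text mentions repeated hybridisations.

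On simulated channels with 25997 features and the design of WTC minus WT, the log ratio fit recovered 73% of 100 features changed by 1 on the log2 scale and 92% of 100 changed by 2. The separate-channel fit recovered 88% and 96%. Of the unchanged features the log ratio fit called 10 and the separate-channel fit 16. The simulated channels were drawn independently, without a slide effect, while the mice had an intraspot correlation of 0.321. These counts of false calls thus do not carry over to the separate-channel fit of the mice. In the mice, 6 features passed in the log ratio fit of WTC minus WT. Gfap at 3.47, Hmox1 at 3.00 and Lcn2 at 2.97 on the log2 scale did not pass there. The simulated shares thus cannot be read as the power for the iron genes, and do not show why members failed to pass.

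Named were the 9 members, up to 6 iron genes per direction with the largest ratio among those called, or the 3 with the smallest p where none was, the features most like each member, and Hmox1, Gfap and Aif1. Aif1, a microglia gene, gave a WTC minus WT log2 ratio of 1.61 ± 0.40 (adjusted p = 0.11, log ratio fit). The members and lists were chosen with earlier results of these data known. Some genes that the rule names are not reported here. Alternatives were other background corrections, scalings, filters and probe rules, no dye term, slides, the channel 2 labels and leaving out arrays.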

Additional observations from a re-analysis of the deposited data

Results flagged for a closer look

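Each of 36 groups of mice (9 genes in 4 groups) was checked for a mouse whose distance from the nearest other mouse is large against the range of its group, by Dixon's critical values. Chance flags about 1 in 20 such groups, and 4 of the 36 were marked here. The Tfrc level of the WT mouse of array F was 10.09, with the other WT mice between 10.36 and 10.51. The Trf level of the T mouse of array J was 14.42, with the other T mice between 15.49 and 15.79. This mouse enters TC minus T, which is 1.30 with array J and 0.74 without it in the log ratio fit. The Slc40a1 level of the WT mouse of array E was 9.46, with the others between 8.77 and 8.99. The Aco1 level of the TC mouse of array M was 7.19, with the others between 7.39 and 7.45.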

How the results depend on the processing

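The log ratio fit called 6 features and 0 of the 9 members in WTC minus WT. It called 1 feature with the Feature Extraction log ratio, with no filter on dim probes, with the mean of a gene's probes or with slide as a random block, and 0 with median centring or the channel 2 labels. Slide 1 alone gave 2128 features (1420 higher, 708 lower) and 4 members, and leaving out arrays I, J and K gave 1741 (1342 higher, 399 lower) and 5 members. The separate-channel fit gave 6856 (3701 higher, 3155 lower) and 5 members in WTC minus WT, 1924 and 3 in TC minus T, and 36 features in TC minus WTC. Added after seeing the data, channels with array as a random block gave 6882 and 5, 1911 and 3, and 34. Leaving the TC mouse of array I out of this fit gave 8353 and 5, 3246 and 4, and 45, with 2 features for the difference of lesion effects. The channel 2 labels called 3 features in TC minus WTC. Leaving out each array gave 0 to 1558 features and 0 to 4 members in WTC minus WT, 0 to 6 features in TC minus T and 0 to 2 in TC minus WTC. In WTC minus WT there were 1433 features without array I, Slc40a1 and Slc11a1 among them, and 1558 without array K, with Fth1, Ftl1, Trf and Slc11a1. Beyond the number of arrays or mice compared in each setting, the cause of these changes was not tested.

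Among the members' log2 ratios in WTC minus WT, Ireb2 alone changed sign under the settings run: it was -0.059 with separate channels, -0.063 and -0.060 in the added fits and -0.025 with median centring. In TC minus T Ireb2 was -0.072 with separate channels, -0.075 and -0.077 in the added fits, -0.036 with the Feature Extraction log ratio and -0.058 within slide 2, and Tfrc was 0.056 within slide 2. The channel 2 labels turned TC minus T for Fth1 (-0.11), Ftl1 (-0.099), Trf (-0.10) and Slc11a2 (-0.026), T minus WT for Fth1 (0.11), Trf (0.28) and Aco1 (0.029), TC minus WTC for Ireb2 (0.016) and the difference of lesion effects for Ireb2 (0.11). Median centring moved the median of all features in WTC minus WT from 0.0031 to -0.105. It turned Fth1 in T minus WT (0.028), in TC minus WTC (0.038) and for the difference of lesion effects (0.0098), Slc11a2 in the latter pair (0.16 and 0.12), and for the difference also Slc40a1 (0.093), Trf (0.072) and Ireb2 (0.030). In T minus WT Ftl1, Slc11a1 and Tfrc were -0.15, -0.082 and 0.053 within slide 1 and -0.068, -0.011 and 0.11 without arrays I, J and K. Ireb2 was 0.019 there with the Feature Extraction log ratio, Fth1 0.079 without the dye term and Slc11a2 -0.00021 in the added fit that leaves out a mouse. In TC minus WTC Slc11a2 was 0.035 with the Feature Extraction log ratio, 0.0085 with the mean of probes, 0.0053 without background correction, 0.0072 without the dye term and 0.028 within slide 2, and Ireb2 was 0.0049 within slide 2 and 0.019 without arrays I, J and K. For the difference of lesion effects Slc11a2 was 0.013 with the Feature Extraction log ratio and 0.0041 without the dye term, Ireb2 0.10 without arrays I, J and K and Slc40a1 0.15 within slide 1. The cause was not tested for any of these. With the mean of its 3 probes Tfrc was -0.30 ± 0.12 in WTC minus WT.

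Leaving out each array turned signs over these ranges. Ireb2 ran from -0.0061 to 0.10 in WTC minus WT, from -0.0017 to 0.083 in TC minus T, from -0.066 to 0.0086 in T minus WT and from -0.10 to 0.0096 for the difference of lesion effects. In T minus WT Fth1 ran from -0.15 to 0.046, Tfrc from -0.21 to 0.013 and Slc11a2 from -0.022 to 0.094. In TC minus WTC Ftl1 ran from -0.89 to 0.082, Slc11a1 from -0.76 to 0.045 and Slc11a2 from -0.12 to 0.077. For the difference of lesion effects Trf ran from -0.57 to 0.074, Slc40a1 from -0.20 to 0.095 and Slc11a2 from -0.12 to 0.038. The low signal of the Aco1 and Ireb2 probes limits what their ratios can show. Mice that shared an array were compared within it in the log ratio fit, and the labels give no replicate numbers for any further pairing.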
